A study of Mus musculus with 1507 samples.

Results

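Pooled lysate of embryonic stem (ES) cells in the G1 phase was compared with purified total RNA of ES cells. Both were taken through the same single-cell total RNA-seq protocol, RamDA-seq. The members are the 18 samples whose titles name either the averaged G1 lysate (9 wells, D02 to F04) or 10 pg of diluted total RNA (9 wells, A02 to C04), out of 1507 samples in the series. All came from 5G6GR cells, a mouse ES line derived from EB5 that carries a randomly integrated Gata6-GR-IRES-Puro vector, grown without feeders in serum with leukemia inhibitory factor, puromycin and blasticidin. None of these wells had received dexamethasone, which switches on the transgene product. For the lysate, 180 cells in G1 were sorted by DNA content (Hoechst staining) after TrypLE dissociation and propidium iodide staining, lysed together in 180 µl and split into shares of 1 µl, so that each share held the average content of a cell. For the RNA, total RNA of unsorted cells was purified on silica columns (RNeasy Mini Kit) and diluted. Cell cycle phase, sorting, staining, purification and plate row all changed together between the groups and cannot be told apart. The 9 wells of a group came from 1 tube of lysate or 1 stock of RNA, so the spread between wells and every p-value below measure technical variation only.

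RamDA-seq primes reverse transcription with not-so-random primers together with oligo-dT, so RNAs without a poly(A) tail are read as well as mRNAs. Small nucleolar RNAs (snoRNAs) and small Cajal body RNAs (scaRNAs) are such RNAs: most are cut out of the introns of host genes, stay in the nucleus and guide chemical modification of ribosomal and spliceosomal RNA. Unspliced pre-mRNA and long noncoding RNAs such as Malat1 and Neat1 are also held in the nucleus. Replication-dependent histone mRNAs end in a conserved stem-loop in place of a tail and are made and kept mainly in S phase. Immediate early genes such as Fos and Egr1 are transcribed within minutes of a stimulus, and their mRNAs are short-lived.

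The snoRNAs below are printed because they were among those higher in lysate and show both structural families. In the first 4, capitals mark the ACA that stands 3 bases before the 3′ end in H/ACA snoRNAs. In the last 3, they mark the C box (TGATGA) near the 5′ end and the D box (CTGA) near the 3′ end of C/D snoRNAs. Sequences are transcripts of GENCODE vM21 on GRCm38, which held all 1508 snoRNA transcripts of the table at the same coordinates.
Snora20: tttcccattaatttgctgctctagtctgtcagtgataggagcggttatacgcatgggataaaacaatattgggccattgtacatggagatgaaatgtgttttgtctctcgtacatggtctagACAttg
Snora41: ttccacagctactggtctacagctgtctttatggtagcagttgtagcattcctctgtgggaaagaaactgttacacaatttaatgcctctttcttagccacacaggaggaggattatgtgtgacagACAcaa
Gm24451: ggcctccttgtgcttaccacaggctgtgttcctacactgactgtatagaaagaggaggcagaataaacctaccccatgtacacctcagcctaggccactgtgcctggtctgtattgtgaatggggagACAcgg
Gm24507: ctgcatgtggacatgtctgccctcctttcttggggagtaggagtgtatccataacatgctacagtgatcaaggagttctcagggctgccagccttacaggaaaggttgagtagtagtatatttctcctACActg
Gm25835: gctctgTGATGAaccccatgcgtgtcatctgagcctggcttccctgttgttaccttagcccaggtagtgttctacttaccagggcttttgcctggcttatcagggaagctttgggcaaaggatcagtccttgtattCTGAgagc
Snord37: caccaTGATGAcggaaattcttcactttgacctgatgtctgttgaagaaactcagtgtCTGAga
Snord111: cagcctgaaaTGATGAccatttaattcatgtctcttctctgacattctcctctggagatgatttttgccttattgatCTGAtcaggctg

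More transcripts were detected in the lysate than in the purified RNA. At a TPM of at least 0.1 (a transcript's level per length, scaled to the same sum in every well), the lysate wells held 37061 to 40758 transcripts with a median of 40000, and the RNA wells 34723 to 35851 with a median of 35085. The groups did not overlap (exact permutation test over wells, two-sided, p = 4.11e-05, the smallest that 9 against 9 wells allow). Transcripts annotated with a retained intron gave the largest part of the gain, with a median of 7805 in lysate and 6207 in RNA, followed by protein-coding transcripts with medians of 20116 and 18857. Replication-dependent histone transcripts went the other way, with 46 to 52 of 74 detected in lysate and 56 to 62 in RNA. Lysate well D04 had the fewest transcripts of its group, and its Pearson r with the other lysate wells was also the lowest (median 0.8998). TPM keeps no record of read depth, so the depth of these wells is unknown, and the part of depth in the number detected was not tested. Between wells, r of log10(TPM + 1) per gene was 0.911 to 0.917 among RNA wells, 0.898 to 0.910 among lysate wells and 0.887 to 0.899 between the groups.

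Of 15653 genes with a mean TPM of at least 1, 1934 were higher in lysate and 448 lower by limma's moderated test on log2(TPM + 1), at a Benjamini-Hochberg adjusted p below 0.05. These are 12.4% and 2.86% of the genes tested. With a fold of at least 2 besides, 1090 were higher and 188 lower, or 6.96% and 1.2%. A fold here is the difference of mean log2(TPM + 1), which understates the change of low genes. The median fold of all genes tested was 0.26 on the log2 scale, so an unchanged level relative to other genes lies near 0.26 rather than at 0. A few very short or ribosomal genes take a large part of all TPM, Mir6236 alone 24.1% ± 1.49 (SD, n = 9) in lysate and 26.6% ± 1.61 in RNA, and the scale rests on them. Scaling the wells by median ratios moved the median to 0.14 and the calls to 1329 higher and 822 lower, so that 61.8% of calls were higher in place of 81.2%.

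Shares of all TPM by transcript class, with no filter on low values, gave the broad picture. snoRNAs took 0.453% to 0.625% (median 0.521%) of TPM in lysate and 0.204% to 0.277% (median 0.218%) in RNA. No lysate well was as low as an RNA well, and the ratio of means was 2.33. The scaRNA share was 2.69 times, that of antisense RNAs 1.59 times, that of long intergenic noncoding RNAs (lincRNAs) 1.58 times and that of retained-intron transcripts 1.36 times the RNA value, again without overlap. Replication-dependent histones took 0.0489% to 0.0703% (median 0.0555%) in lysate and 0.223% to 0.296% (median 0.258%) in RNA, a ratio of 0.224. For each of these classes the exact permutation test gave an adjusted p of 0.000106 over 18 classes. The share of protein-coding transcripts overlapped between the groups: they took 24.6% to 28.9% in lysate and 25% to 29.6% in RNA (ratio 0.984, exact permutation adjusted p = 0.617). So did 6 transcripts of ribosomal RNA and its neighbouring genes (ratio 0.972, adjusted p = 0.329 by the same exact test) and mitochondrial rRNA (ratio 1.02, adjusted p = 0.538, exact). Other classes passed that exact test though their wells overlapped. The further 353 transcripts annotated as rRNA, at 0.0205% and 0.0102%, had a ratio of 2.01 (adjusted p = 0.00659). The shares of miRNA genes (ratio 0.916, adjusted p = 0.0228) and pseudogenes (ratio 0.960, adjusted p = 0.00222) were lower. Single genes made up most of each share. Mir6236 held a mean of 24.1% in lysate and 26.6% in RNA, out of 26.8% and 29.3% for miRNA genes. The pseudogene Gm15662 held 11.93% and 12.99%, out of 17.2% and 17.9% for pseudogenes. These falls therefore do not describe the other members of either class.

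**Figure D1:**
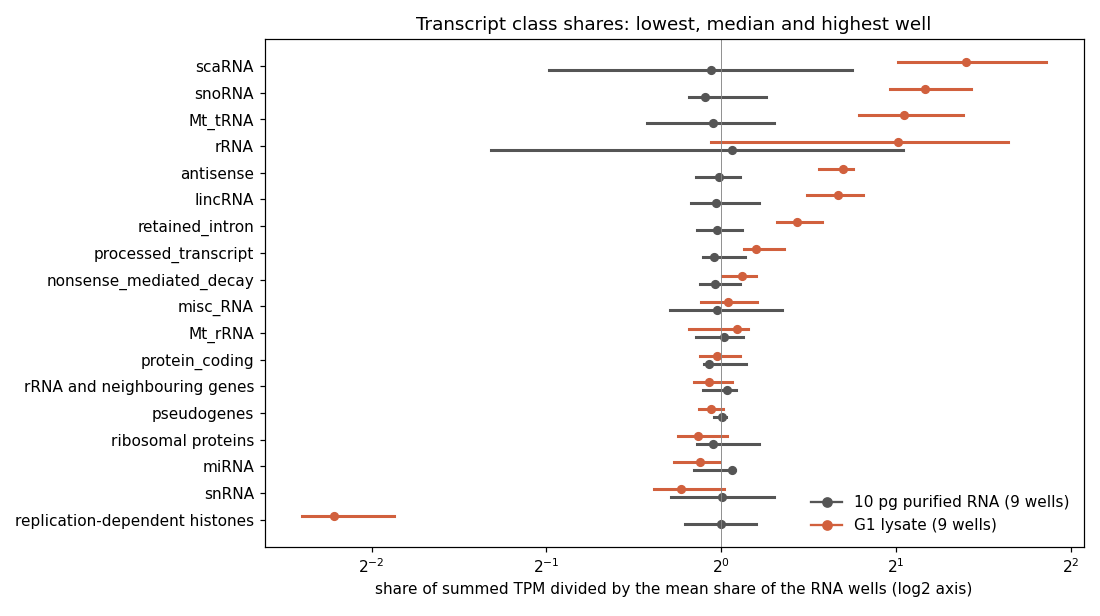
Share of summed TPM of each transcript class, divided by its mean share in the 9 RNA wells, on a log2 axis; points are medians and lines run from the lowest to the highest well, grey for RNA and orange for lysate. The lysate lines of scaRNAs, snoRNAs, mitochondrial tRNAs, antisense RNAs, lincRNAs and retained-intron transcripts lie wholly to the right of the RNA lines, and that of replication-dependent histones wholly to the left, at 0.224 times the RNA mean.

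Single genes were counted by calls, a measure unlike the class share. The tested snoRNA genes had a median log2 fold of 0.74, against 0.26 of all genes. Of 1482 annotated snoRNA genes, 342 passed the filter on mean TPM, and of these 52 were higher in lysate (15.2%, near the 12.4% of all genes) and 0 lower (2.86% of all genes). The filter is a mean over all 18 wells, so a gene seen in lysate alone could pass through that group. The count and the median are thus descriptions. Gm25835, a C/D snoRNA in an intron of the translation factor gene Eif4a1 (chr11:69668852-69668995, minus strand), stood at 58.7 to 189 TPM (median 116) in lysate and 0 to 46.7 (median 7.41) in RNA. The groups did not overlap, and the log2 fold was 4.03 (SE 0.67, limma adjusted p = 0.000254). Snora28, in an intron of another translation factor gene, Eif5 (chr12:111540941-111541067, plus strand), was at 62.6 to 134 (median 104) and 0 to 37 (median 7.99), also without overlap (log2 fold 3.86, SE 0.65, limma adjusted p = 0.000294). Gm24507, an H/ACA snoRNA in an intron of Tmem167 (chr13:90098981-90099114, plus strand), was at 7.80 to 63.9 (median 41.7) in lysate and listed at 0 in 6 of 9 RNA wells, with at most 7.65 in the others. Gm24451, in a retained-intron exon of Nop56 (chr2:130276237-130276369, plus strand), reached 24.7 to 263 (median 120) against 0 to 29.3 (median 7.12), with an overlap between the lowest lysate and the highest RNA wells. Nop56 encodes a core protein of the C/D snoRNA particle. Snora20, in an intron of the chaperonin gene Tcp1 (chr17:12922790-12922917, plus strand), and Snord111, in an intron of the splicing factor gene Sf3b3 (chr8:110838528-110838616, minus strand), were listed at 0 in all 9 RNA wells. In lysate they stood at 0 to 75.1 (median 16.2) and 0 to 109 (median 21.3), with 2 and 3 wells at 0.

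The host genes of the called snoRNAs were looked up as well. A tested host on the same strand was found for 42 of the 52 snoRNAs, over 38 hosts, and 32 of the 42 lay in introns only. Of the 38 hosts 15 were called higher (39.5%) and 3 lower (7.89%), against 12.4% and 2.86% of all genes. Those shares are no like background, as hosts were reached through called snoRNAs. Where several genes spanned a snoRNA, the one of the highest mean was taken. In the fit of genes with a mean TPM of at least 10, 1193 of 6421 were higher and 420 lower. The snoRNAs were taken because they passed the test, so the size of their folds is not set against that of their hosts. Snord37 (chr10:81178950-81179013, plus strand) lies in an intron of Eef2, the elongation factor that moves the ribosome along mRNA. It was at 0 to 84.9 (median 43.1) in lysate and listed at 0 in 8 of 9 RNA wells, with a log2 fold of 3.66 (SE 0.82, limma adjusted p = 0.0039). Eef2 itself was at 657 to 817 (median 758) in lysate and 767 to 931 (median 861) in RNA, and was lower by the test (log2 fold -0.17, SE 0.05, limma adjusted p = 0.0337). Snora41 (chr1:63179004-63179135, plus strand) lies in an intron of Eef1b2, another elongation factor gene. It was at 10.1 to 56.1 (median 28.9) in lysate and 0 to 31.9 (median 0) in RNA, with a log2 fold of 3.14 (SE 0.70, limma adjusted p = 0.00377). Eef1b2 was at 802 to 1103 (median 911) and 746 to 1160 (median 870), with a log2 fold of 0.0047 (SE 0.083, limma adjusted p = 0.982). Of the 10 snoRNAs without a tested host, 8 lay within chr9:15312552-15316808, past the end of Taf1d in the annotation used for counting but inside the same gene in GENCODE vM21. Taf1d, of the polymerase I machinery, was itself higher (27.4 to 58.6 against 14.6 to 29.5, log2 fold 0.97, SE 0.17, limma adjusted p = 0.00037). Both families were present among the called genes: of the tested snoRNA transcripts, 23 of 121 with the ACA, 14 of 77 with C and D boxes and 15 of 158 with neither belonged to genes called higher. Reads were assigned without strand and over all transcripts at once, so a snoRNA inside a retained intron shares reads with its host. Snora19 and Gm23658, and likewise Gm22579 and Gm24539, have identical values in every well, so the 52 genes called are 50 distinct sets of values.

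Among the other small RNA genes the picture was mixed. Of 23 scaRNA genes tested, 3 were higher (13%, about the share of all genes) and 0 lower, with a median log2 fold of 0.75. Gm24289, a scaRNA gene in an intron of Tipin (chr9:64295931-64296065, plus strand), was at 30.3 to 102 TPM (median 89.3) in lysate and 0 to 28.1 (median 0) in RNA, without overlap (log2 fold 4.66, SE 0.60, limma adjusted p = 1.41e-05). Of 19 mitochondrial tRNA genes tested, 1 rose (5.26%) and 3 fell (15.8%), against 12.4% and 2.86% of all genes. Their median log2 fold was -0.99, although the summed share of the class was higher in lysate. The one that rose, mt-Ts1, went from 2356 to 4123 (median 3165) in RNA to 6226 to 9382 (median 7399) in lysate, and it made up most of its class. mt-Tl1 fell from 57.4 to 170 (median 112) in RNA to 0 to 61 (median 15.4), and mt-Tm and mt-Tr were listed at 0 in all 9 lysate wells. mt-Tm and mt-Tr thus passed the filter on mean TPM through the RNA wells alone. Of 208 spliceosomal and other small nuclear RNA genes tested, 17 were higher (8.17%) and 2 lower, but the 17 are only 7 distinct sets of values, the largest being 7 genes with Rnu1a1 (35.5 to 81 against 0 to 32.5). The 2 that fell, Gm24265 and Gm24407, lie within 1 kb of each other on chromosome 5 (chr5:115489459-115489599 and chr5:115490254-115490394). Gm24265 was at 191 to 282 (median 230) in lysate and 570 to 1568 (median 931) in RNA, without overlap, with a log2 fold of -2.08 (SE 0.15, limma adjusted p = 3.95e-09). Small nuclear RNA genes have many near copies, so the assignment of reads among them is uncertain. Of the 16 tested members of a separate list of known RNAs without a tail, 0 passed limma's test in either direction. Other RNAs without a tail, the histone mRNAs and the long Neat1 isoform, did differ, as given below. The 7SK RNA Rn7sk, the RNase P RNA Rpph1 and the RNase MRP RNA Rmrp had log2 folds of -0.18, 0.035 and -0.17, with adjusted p of 0.127, 0.785 and 0.286.

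Of 729 microRNA (miRNA) genes tested, 36 were higher and 10 lower, which is 4.94% and 1.37%, under the shares of all genes. Their median log2 fold was 0.42, against 0.26 of all genes. Such a gene's TPM counts reads over its hairpin, which can come from a longer transcript, and mature miRNAs were not measured apart. Among the 36 higher genes, 10 were listed at 0 in all RNA wells. Among the 10 lower genes, 5 were listed at 0 in all lysate wells. These genes passed the filter on mean TPM only through the group in which they were seen. The counts and the median are thus descriptions, as for the snoRNAs. Mir3070a stood out, at 13.6 to 71.8 TPM (median 31.2) in lysate and listed at 0 in all 9 RNA wells. Its hairpin lies at chr12:109587943-109588031, plus strand, in the imprinted Dlk1-Dio3 region between the noncoding RNAs Meg3 and Rian. The hairpin has the same sequence in GENCODE and RefSeq, which gives 2 mature miRNAs from it, printed with their seeds (bases 2 to 8) in capitals.
mmu-miR-3070-5p: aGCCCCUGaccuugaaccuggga
mmu-miR-3070-3p: uGGUGCUAccgucagggguaga
Mir673, Mir493 and Mir665 of the same stretch were also listed at 0 in all RNA wells, with lysate medians of 11.2, 11.5 and 9.98. They were less clear than Mir3070a, being at 0 in 4, 3 and 4 of the 9 lysate wells as well (limma adjusted p = 0.0242, 0.00643 and 0.0248). Their calls were kept under 7, 8 and 7 of 8 alternatives. Mir3070b, a hairpin of 89 bases in this stretch, was higher too, at 0 to 53.6 (median 24.9) in lysate and 0 to 16.9 (median 0) in RNA. Its call was kept under 4 of 9 alternatives. How reads were split between Mir3070b and Mir3070a was not tested. Meg3 was at 61.9 to 86.2 (median 68.7) in lysate and 10.3 to 23.1 (median 15.5) in RNA, and Rian at 225 to 467 (median 361) and 129 to 183 (median 157), both without overlap. Their log2 folds were 2.10 (SE 0.14, limma adjusted p = 1.2e-09) and 1.21 (SE 0.12, adjusted p = 3.2e-07). On chromosome 2, Mir669a-1, Mir669a-3 and 5 further hairpin genes in an intron of Sfmbt2 had lower values, of which Gm22166 and Gm23288, and likewise Gm26092 and Mir669a-1, are identical in every well. Sfmbt2 itself gave a log2 fold of -0.53 (adjusted p = 0.294).

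Within protein-coding and noncoding genes, transcripts that keep an intron were higher in lysate relative to the other transcripts of the gene. This comparison was chosen after the data were seen. Of 3650 genes with both kinds of transcript, 161 had a higher ratio of intron-retaining to other TPM in lysate and 5 a lower ratio (limma on log2((intron-retaining + 1)/(other + 1)), adjusted p below 0.05), which is 4.41% and 0.137%. The ratio was above that of the RNA in 2572 genes and below it in 1078, with a median of 0.35 on the log2 scale. Intron-retaining transcripts had a median log2 fold of 0.53 and the others 0.14. Eif4a1, the helicase gene that hosts Gm25835, had 40.7 to 108 TPM (median 81.2) of intron-retaining transcripts in lysate and 2.24 to 11.9 (median 7.99) in RNA. Its other transcripts were at 592 to 845 (median 690) and 493 to 713 (median 647) and overlapped. The log2 ratio differed by 2.97 (SE 0.33, limma adjusted p = 2.13e-05). Gas5, a snoRNA host that encodes no protein, had 220 to 458 (median 371) of intron-retaining transcripts against 39.4 to 149 (median 61.2), while the others were at 16.8 to 101 (median 83.7) and 61.1 to 154 (median 80.2), so that its ratio differed by 2.69 (SE 0.36, limma adjusted p = 0.000179). Slbp, whose protein binds the histone stem-loop, had 15.9 to 55.5 (median 36.3) against 1.23 to 23.1 (median 6.06) of intron-retaining and 42.5 to 71.2 (median 55.0) against 28.4 to 49.3 (median 38.4) of other transcripts. The histone variant genes H2afz and H3f3a, the splicing regulator gene Hnrnpa3 and the ribosomal protein gene Rpl10 were also called, with log2 ratio differences of 2.95, 2.64, 3.16 and 2.92. Rps20 went the other way, with other transcripts at 30.8 to 55.0 against 15.2 to 24.4 and intron-retaining ones at 372 to 533 against 365 to 539. With a pseudocount of 0.1 in place of 1, 78 genes had a higher and 1 a lower ratio.

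**Figure D2:**
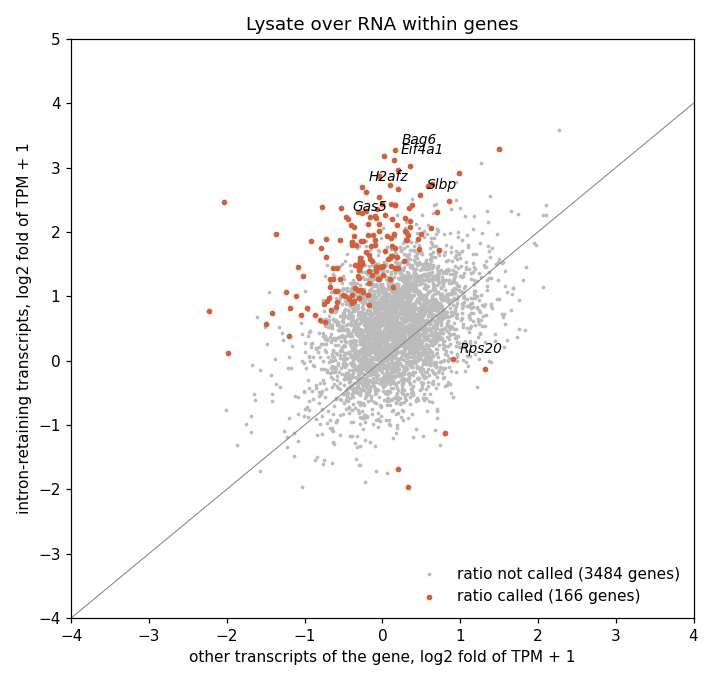
Log2 fold of lysate over RNA for the intron-retaining transcripts of a gene (vertical axis) against that of its other transcripts (horizontal axis), 3650 genes, on the scale of log2(TPM + 1); orange points are the genes whose ratio passed the test (161 higher and 5 lower) and the line marks equal folds. More points lie above the line (2572) than below it (1078), with Eif4a1, Gas5, Slbp, H2afz and Bag6 far above and Rps20 below.

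Most of the nuclear and other long noncoding RNAs that were tested were higher. Of 22 annotated members of the list, 17 were tested, 11 were higher and 0 lower (64.7% against 12.4% of all genes), with a median log2 fold of 1.11. Malat1, the most abundant RNA of nuclear speckles, was at 836 to 1031 TPM (median 1008) in lysate and 350 to 453 (median 415) in RNA. The groups lay far apart, with a log2 fold of 1.28 (SE 0.061, limma adjusted p = 1.06e-11). Neat1, the scaffold of paraspeckles, was at 32.7 to 138 (median 70.9) against 3.92 to 38.1 (median 6.29), where a single RNA well reached into the lysate range (log2 fold 3.11, SE 0.34, limma adjusted p = 1.9e-06). Its long isoform Neat1-001 (20771 bases, without a tail) was at 13.8 to 109 (median 48.1) in lysate and 0.0717 to 2.60 (median 0.749) in RNA. The short, tailed Neat1-002 (3004 bases), which lies wholly within the long one, was at 7.90 to 31.1 (median 19.1) and 0.889 to 37.4 (median 3.85). The RNAs of the X chromosome and of imprinted loci differed in firmness. Firre had a log2 fold of 1.45 and Nespas one of 1.35. Kcnq1ot1 (0.49, adjusted p = 0.185), Airn (0.49, adjusted p = 0.387) and Tsix (0.46, adjusted p = 0.28) did not pass limma's test. Of 14 tested genes listed as snoRNA hosts, 6 were higher and 0 lower, led by Snhg12 (60.2 to 124 against 22.6 to 45.2, log2 fold 1.52) and Snhg17 (20.8 to 57 against 5.40 to 16.6, log2 fold 1.38). By annotation type, 105 of 464 lincRNA genes were higher (22.6%) and 4 lower, and 61 of 424 antisense genes were higher (14.4%, near the 12.4% of all genes) and 5 lower. The median log2 folds of these types were 0.556 and 0.525. Without strand, antisense reads cannot be told from those of the partner gene.

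Replication-dependent histone genes were the clearest group in the other direction. Of 68 genes, 58 were tested, and 47 were lower and 0 higher, against 2.86% lower among all genes, with a median log2 fold of -2.19. All 4 core families and the linker histones were among them. Hist1h1d, a linker histone, was at 11.2 to 21.7 TPM (median 14.2) in lysate and 88 to 146 (median 129) in RNA. The lowest RNA well was thus above every lysate well, and the log2 fold was -2.93 (SE 0.14, limma adjusted p = 1.06e-11). Among core histones, Hist1h2bg (H2B) was at 0.274 to 20.4 (median 12.0) against 54.1 to 132 (median 97.3), Hist2h2aa1 (H2A) at 0 to 11.5 (median 2.51) against 20 to 53.7 (median 38.9), and Hist1h4d (H4) at 23.8 to 52.2 (median 44.7) against 104 to 162 (median 127). None of these 3 overlapped, with log2 folds of -3.36, -3.76 and -1.66. The 11 that were not called included Hist2h3c1 (0 to 9.01 against 0 to 2.38, log2 fold 1.28, limma adjusted p = 0.0561) and Hist3h2a. Many histone genes are near copies, so reads may have been split between them, but the summed share of the family fell as given above. The 16-base stem-loop motif (the capitals below, with any base at the fourth and the fourth last position), searched on the sense strand of each transcript, was found in models of 31 of the 68 genes and in 38 of 141767 transcripts of the annotation (0.0268%). Gene models without it may stop short of the true 3′ end. The motif is shown in capitals for the 4 genes named, each with 5 bases on either side.
Hist1h1d: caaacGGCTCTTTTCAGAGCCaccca
Hist1h2bg: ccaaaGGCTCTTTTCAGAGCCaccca
Hist1h4d: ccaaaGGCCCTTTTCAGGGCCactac
Hist2h2aa1: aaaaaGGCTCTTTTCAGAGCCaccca
Of 27 tested genes with the motif in their model 20 were lower, and of 31 without it 27 were lower. Of 11 genes for histone mRNA processing 1 was called, Slbp (70.4 to 110 against 38.7 to 51.9, higher in lysate).

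Most G2/M genes fell as well. In such bulk material fewer cells of a phase and less RNA per cell cannot be told apart. Of 43 genes, all tested, 35 were lower (81.4% against 2.86% of all genes), 8 were not called and 0 were higher. The median log2 fold was -1.02. Ube2c, the ubiquitin-conjugating enzyme of the anaphase-promoting complex, was at 8.07 to 21 TPM (median 14.2) in lysate and 74.3 to 134 (median 91.7) in RNA (log2 fold -2.75, SE 0.17, limma adjusted p = 4.32e-10). Top2a, which untangles chromosomes before they separate, was at 45.6 to 77.1 (median 63.1) against 117 to 222 (median 179), also without overlap (log2 fold -1.52, SE 0.13, limma adjusted p = 4.56e-08). Mitotic kinases were among the lower genes, with Plk1 at a log2 fold of -1.78, Cdk1 at -1.60 and Aurka at -1.51. Ccnb1, the cyclin partner of Cdk1, was at 42.9 to 64.3 (median 57.7) against 80.1 to 149 (median 96.1). The cyclin gene Ccnb2, in contrast, was at 25.3 to 45.2 against 23 to 51.1 (log2 fold -0.24, limma adjusted p = 0.331). Of 32 G1/S genes 7 were higher and 2 lower (21.9% and 6.25%, against 12.4% and 2.86% of all genes), with a median log2 fold of 0.15. The replication genes Pcna (82.8 to 156 against 50.7 to 105) and Mcm4 (53.1 to 82.5 against 29.2 to 61.3) were higher, and Ccne1 (8.83 to 35.9 against 21.7 to 41.9) and Rrm2 were lower. With median-ratio scaling 3 G1/S genes were higher. Of 12 G1 cyclins and inhibitors 2 were higher and 3 lower. Ccnd1, the cyclin of early G1, was at 7.30 to 23.5 (median 14) against 27.1 to 49.1 (median 35.3), lower in lysate by 1.36 on the log2 scale (fold -1.36, SE 0.22, limma adjusted p = 0.000191).

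**Figure D3:**
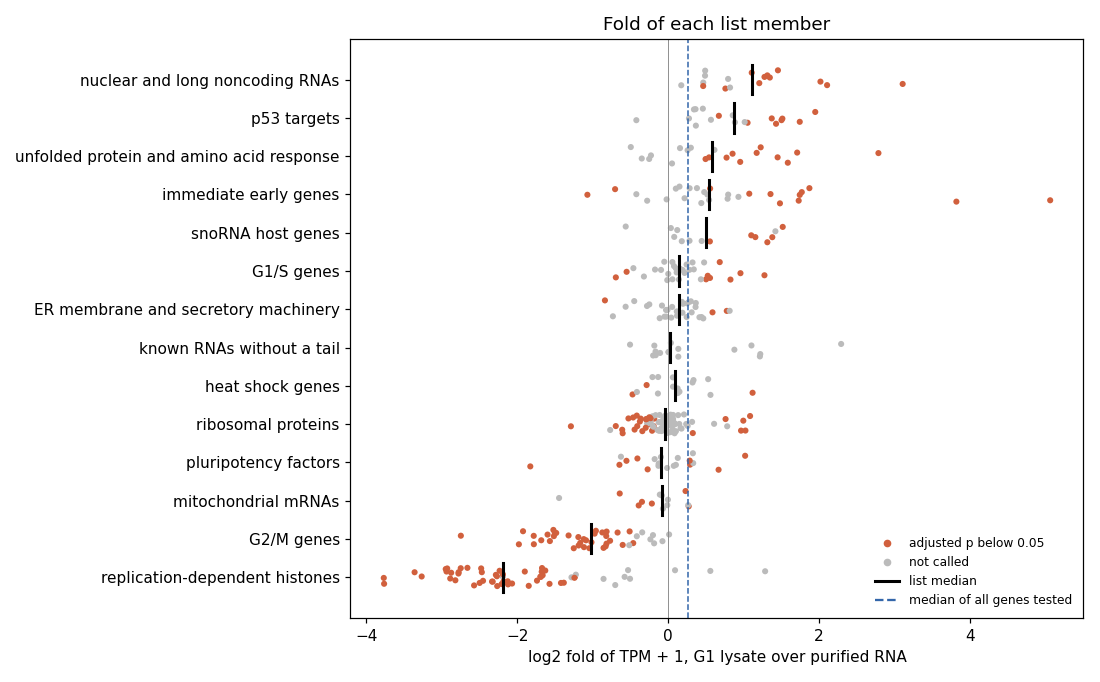
Log2 fold of TPM + 1, lysate over RNA, for each tested member of 14 gene lists; orange points passed an adjusted p of 0.05 by limma, black bars are list medians and the dashed line is the median of all 15653 genes. Histone and G2/M points lie far to the left with medians of -2.19 and -1.02, while nuclear noncoding RNAs have a median of 1.11 and ribosomal protein genes have one of -0.048.

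An immediate early gene had the largest fold among the genes named. Of 34 genes 27 were tested, and 10 were higher and 2 lower (37% and 7.41%, against 12.4% and 2.86% of all genes). The median log2 fold was 0.54. Egr1, a zinc finger transcription factor gene, was at 34.5 to 62.6 TPM (median 46) in lysate and 0 to 1.91 (median 0.312) in RNA. No gene that passed the naming rule had a larger fold (log2 5.06, SE 0.22, limma adjusted p = 5.25e-12). Fos, which forms the AP-1 factor with Jun, was at 13.5 to 26.9 (median 18.6) and listed at 0 in 6 of 9 RNA wells, with at most 2.50 in the others (log2 fold 3.82, SE 0.29, limma adjusted p = 7.47e-09). Jun was at 1.56 to 6.56 (median 3.62) against 0 to 1.43 (median 0), and Junb at 5.6 to 15 (median 10.7) against 1.09 to 4.38 (median 2.63), neither with overlap. The antiproliferative genes Btg2 and Btg1 had log2 folds of 1.74 and 1.35. The list was not uniform. Ier2 stood at 16.4 to 36.2 against 18.4 to 37.1 (log2 fold -0.0215, limma adjusted p = 0.95), Nr4a1 at 2.34 to 10.5 against 3.80 to 9.91, and Myc fell, at 4.52 to 10.3 (median 5.54) against 9.53 to 20.2 (median 13.5), by 1.07 on the log2 scale (fold -1.07, SE 0.19, adjusted p = 0.000377). The phosphatase gene Dusp6 fell as well, and Dusp1 rose (6.46 to 29.9 against 3.74 to 10.9).

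**Figure D4:**
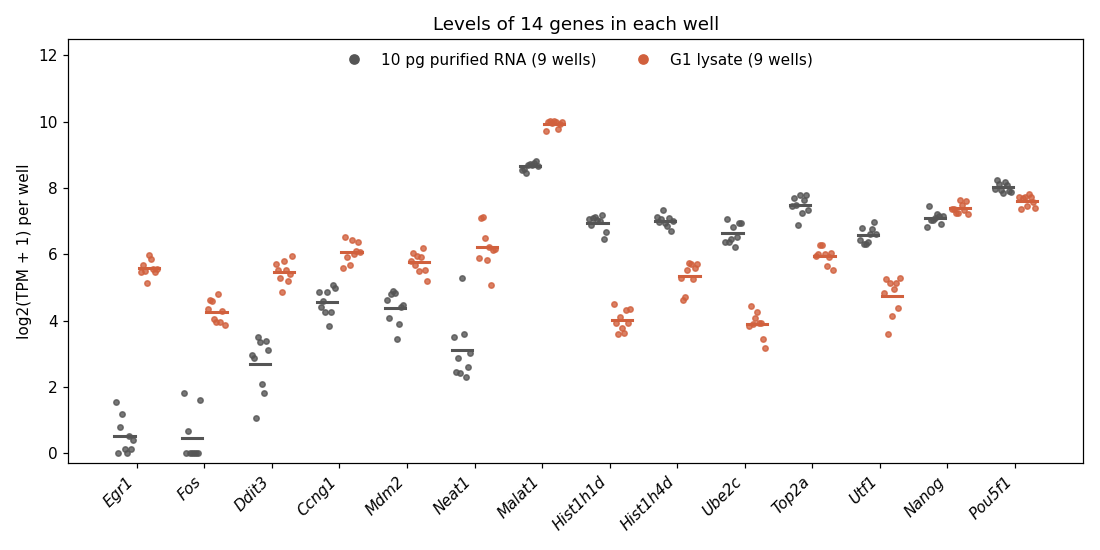
Level of 14 genes as log2(TPM + 1) in each of the 9 RNA wells (grey) and 9 lysate wells (orange), with bars at group means. For Egr1, Fos, Ddit3, Ccng1, Mdm2, Malat1, Hist1h1d, Hist1h4d, Ube2c, Top2a, Utf1 and Pou5f1 the point clouds do not overlap, whereas Neat1 has 1 RNA well within the lysate range and Nanog overlaps.

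Genes of the unfolded protein and amino acid response, which cells turn on when the endoplasmic reticulum is loaded or amino acids run short, were higher in part. Of 20 genes, all tested, 11 were higher (55.0% against 12.4% of all genes) and 0 lower (2.86% of all genes). The median log2 fold was 0.58. Ddit3, which encodes the transcription factor CHOP, was at 28.1 to 61.2 TPM (median 45.1) in lysate and 1.12 to 10.5 (median 6.84) in RNA, without overlap (log2 fold 2.78, SE 0.29, limma adjusted p = 6.48e-07). Trib3, a target of CHOP, was at 25.2 to 40.7 (median 35.9) against 5.57 to 17.8 (median 12.0). Hspa5, the main chaperone of the endoplasmic reticulum, was at 222 to 345 (median 258) against 133 to 182 (median 152), a log2 fold of 0.77 (SE 0.091, limma adjusted p = 4.02e-06). Asns, asparagine synthetase, was at 352 to 573 against 238 to 397 and overlapped slightly (log2 fold 0.54). Atf4 mRNA, whose regulation is mainly at translation, was at 66.1 to 87.3 against 57 to 96.5 (log2 fold 0.16, adjusted p = 0.369). Xbp1 and Manf, further members, had folds of -0.23 and -0.50 that did not pass limma's test. Of 32 genes of the endoplasmic reticulum membrane and secretory machinery, 2 were higher (6.25%, under the share of all genes) and 1 lower (3.12%, near that share).

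Targets of the tumor suppressor p53 were higher in part. Of 19 genes 18 were tested, and 8 were higher and 0 lower (44.4% against 12.4% of all genes), with 10 not called and a median log2 fold of 0.87. Ccng1 was at 47.6 to 91.1 TPM (median 66.2) in lysate and 13.3 to 33 (median 22.9) in RNA, without overlap (log2 fold 1.5, SE 0.17, limma adjusted p = 3.74e-06). Mdm2, the ligase that degrades p53, was at 35.9 to 72.0 (median 55.3) against 10.0 to 28.7 (median 21.1), and the cell cycle inhibitor gene Cdkn1a at 9.92 to 24.5 (median 17.3) against 4.23 to 7.37 (median 5.93). Both groups of wells were apart for these 2 genes as well, with log2 folds of 1.37 and 1.43. The proapoptotic genes Bbc3 (1.30 to 7.29 against 0.189 to 2.92, limma adjusted p = 0.0588) and Pmaip1 (2.01 to 6.02 against 0.645 to 16.1, adjusted p = 0.487) did not pass. Btg2 belongs to this list and to the immediate early genes.

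Both groups carried the markers of ES cells. All members of the pluripotency list but Dppa3 (0 to 3.80 against 0 to 1.42) passed the filter, and of the 21 tested 4 were higher and 5 lower, with a median log2 fold of -0.097. Tfcp2l1, a factor of the naive state, was at 127 to 176 TPM (median 159) in lysate and 66.3 to 89 (median 79.2) in RNA, without overlap (log2 fold 1.02, SE 0.089, limma adjusted p = 6.24e-08). Utf1 fell furthest, at 11.1 to 37.7 (median 29.8) against 78.3 to 125 (median 96.5), with a log2 fold of -1.83 (SE 0.20, limma adjusted p = 1.44e-06). Pou5f1 was at 164 to 224 (median 207) against 229 to 304 (median 248), a small fold of -0.41 (SE 0.083, adjusted p = 0.00171) without overlap. Nanog (149 to 197 against 113 to 174, log2 fold 0.29) and Sox2 (64 to 79.2 against 70.7 to 103, log2 fold -0.27) overlapped. Their calls were kept under 6 and 8 of 9 alternatives. Among markers of other cells that could be present, 9 of 16 primitive endoderm genes were tested. Of these 2 were higher (22.2%, against 12.4% of all genes), Lama1 and Lamc1. The next lists had 2 to 4 members tested, too few for a share to be set beside that of all genes. Of 13 fibroblast markers 4 were tested and 1 was higher, Fn1 (516 to 592 against 254 to 373). Of 11 mesoderm and trophoblast markers 3 were tested and 2 were higher, Krt8 (8.58 to 24.8 against 2.27 to 8.39) and Tfap2c. Of 9 blood markers 2 were tested and 1 was higher, Cd68, and of 8 neural markers 4 were tested and 0 passed in either direction. The 18 annotated 2-cell genes did not reach the filter.

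Other groups had medians near or a little under 0, below the 0.26 of all genes. Of 92 tested genes named as ribosomal proteins 6 were higher (6.52%) and 21 lower (22.8%, against 2.86% of all genes), with a median log2 fold of -0.048. The name rule also takes S6 kinase genes, and 3 of the 6, Rps6kb1, Rps6ka5 and Rps6kc1, are such kinases. The folds of the 21 were mostly small, as in Rpl8 (474 to 550 against 697 to 771, log2 fold -0.45, SE 0.046) and Rpl41 (1193 to 1410 against 1735 to 2335, log2 fold -0.60, SE 0.057). Of 13 mitochondrial mRNAs 2 were higher and 4 lower (30.8%), with mt-Co1 at 2097 to 2761 against 1720 to 2468 and mt-Nd2 at 295 to 442 against 413 to 712. Of 16 heat shock genes 1 was higher, Hspa1b (1.28 to 8.66 against 0 to 3.32), and 2 were lower, Hspa8 (571 to 738 against 786 to 1016) and Hsp90ab1.

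The naming rule, which asks for no overlap and a mean TPM of at least 10 in the higher group, brought up further protein-coding genes. In the order of their folds after Fos these were Lrrc75a, Ddit3, Trpm1, S100a13, Acot2, Ubap1l, Ccdc97, Nktr, Ripply3 and Atf5, all with log2 folds of 2.22 to 2.87. Lrrc75a lies on chromosome 11 next to the snoRNA host gene 2410006H16Rik, whose snoRNAs Snord49a, Snord49b and Snord65 were higher too. Atf5, a transcription factor of the amino acid response, was at 24.7 to 39.4 (median 31.9) against 3.57 to 8.72 (median 6.28), a log2 fold of 2.22 (SE 0.16, limma adjusted p = 4.22e-09). Nktr was at 58.9 to 124 (median 92.5) against 9.34 to 44.9 (median 18.7). On the lower side, 9 of the 12 genes were histones. The others were Ube2c, Anxa2 and Bnip3, a mitochondrial protein gene of cells short of oxygen, which was at 0 to 10.1 (median 5.91) against 28.8 to 74.8 (median 40), with a log2 fold of -3.39 (SE 0.40, limma adjusted p = 4.71e-06). Among other gene types the highest were Mir3070a, Gm24289, Gm24507, Gm25835, Snora28, Mir3535 in a retained intron of Ncl, Gm27754 and Gm27533, and the lowest were Gm44390, Gm44335, Gm24265, Gm24407 and the pseudogenes Tdgf1-ps1, Rpl28-ps1, Rpl3-ps1 and Gm7536. The pseudogenes share sequence with their parent genes, so their values are uncertain. Gm44390, annotated as a miRNA gene (chr13:22035164-22035307), lies between the histone genes Hist1h2an (chr13:21786826-21787218) and Hist1h3g (chr13:23535434-23535860). Whether its reads come from a histone mRNA was not tested.

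Single cells taken through the same protocol were set beside the wells, with no test. They were 93 cells sorted in G1, 91 in S, 93 in G2/M and 92 at 0 h of a differentiation series, for which the labels give no phase. Of the 1934 genes higher in lysate, the mean of the G1 cells was nearer the lysate than the RNA in 95.8%, that of S cells in 93.4%, of G2/M cells in 95.3% and of 0 h cells in 61.3%. Of the 448 lower genes the shares were 89.7%, 69.4%, 67.9% and 11.8%. Over all genes tested they were 71.2%, 70%, 70.2% and 49.2%. The gene groups divided by which cells they followed. The 11 called long noncoding RNAs and the 52 called snoRNAs were nearer the lysate in the 0 h cells too, in 9 and 43 cases. Of the 11 called genes of the unfolded protein response and the 8 p53 targets, 1 and 0 were nearer the lysate in 0 h cells, against 11 and 8 in G1, 11 and 8 in S and 11 and 7 in G2/M cells. Ddit3 had a mean of 48.5 TPM in G1 cells, 57 in S, 49.5 in G2/M and 8.81 in 0 h cells, beside means of 44.5 in lysate and 6.32 in RNA. Egr1 was at 53.1, 51.7, 43.2 and 24.9, all far above the RNA mean of 0.540. Of the 35 lower G2/M genes, 32 were nearer the lysate in G1 cells, 6 in S, 0 in G2/M and 0 in 0 h cells. Ube2c was at 14.1, 37.6, 199.6 and 73.8, beside 14.3 in lysate and 101 in RNA. Of the 47 lower histones, 46 were nearer the lysate in G1 cells, 28 in S, 47 in G2/M and 3 in 0 h cells. Hist1h1d had means of 20.2, 28.5, 10.8 and 71. A cell group and the wells can differ in culture, day and plate, which cannot be told apart from phase and preparation.

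**Figure D5:**
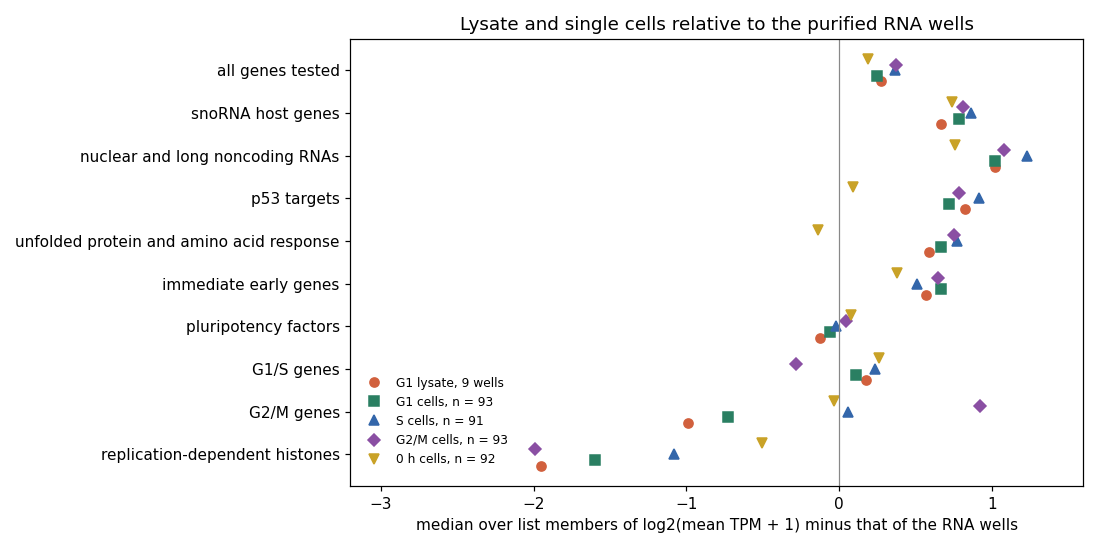
Median over the tested members of each gene list of log2(mean TPM + 1) minus the same value in the RNA wells, for the lysate (circles) and for single cells in G1, S, G2/M and at 0 h. G1 cells lie at -0.73 for G2/M genes and -1.60 for histones, on the side of the lysate (-0.99 and -1.95), G2/M cells lie to the right of 0 for G2/M genes (0.92), and 0 h cells lie near 0 for p53 targets (0.092) and the unfolded protein response (-0.14).

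Fold and spread were also described by transcript length and level. Genes were divided by how long their leading transcript is. The median log2 fold was 0.49 under 100 bases, 0.19 between 1000 and 2000 bases and 0.37 at 8000 bases and over, where 19.2% of 318 genes were higher. For genes of 10 to 1000 TPM the wells of lysate were about as even as those of RNA. Each group was binned by its own mean, so the genes of a bin differ between groups. At 10 to 100 TPM the median coefficient of variation was 33% in lysate and 31.9% in RNA, and at 100 to 1000 TPM 15.8% and 16.3%. At 1 to 10 TPM the order depended on the binning. It was 75.9% and 72.2% by each group's own mean, and 63.8% and 72.2% with both groups binned by the RNA mean.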

How the data were processed

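The authors quantified transcripts from single-end reads with Sailfish, without strand, on GENCODE vM9 (mm10), and deposited TPM values per transcript. TPM keeps no depth, so no counting error is given. In that table, columns of other samples (364 in all) were not used. Transcripts were summed per gene name, and log2(TPM + 1) was compared with limma 3.58.1 (trend, R 4.3.3) over genes with a mean TPM of at least 1, with Benjamini-Hochberg adjustment. Shares of TPM and transcript numbers were compared by exact permutation over all 48620 splits of the wells, two-sided (scipy 1.17.1). The scripts were tested on simulated data. Genes were named from fixed lists and, besides, as the 12 protein-coding and 8 other genes with the largest folds in each direction whose groups did not overlap and whose higher group had a mean TPM of at least 10. Other genes were named after their values were seen. Members and lists were chosen with earlier results of these data known. ERCC spike-ins were added to the wells, but the table used here holds 0 such rows, so the planned spike-in share was not computed. Sequences came from GENCODE vM21 transcripts and RefSeq miRNAs on GRCm38. Alternatives were another pseudocount, other filters and scalings, no trend, plate column as a replicate block and leaving out well D04.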

Additional observations from a re-analysis of the deposited data

Results flagged for a closer look

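In groups of 9 wells, a lowest or highest well was taken as standing apart where its gap to the next well exceeded Dixon's critical value for the share of the group's range, which chance exceeds in about 1 in 20 groups. Of 370 groups looked at, 23 (6.22%) had such a well. Lysate well D04 had the fewest detected transcripts, 37061, with a gap of 0.567 of the range. Among nuclear RNAs, 1 RNA well held 38.1 TPM of Neat1 with a gap of 0.787, the well that reached the lysate range. Among small RNA genes, the highest RNA wells of Snord37 (12.0, the other 8 at 0), Gm24289 (28.1), Gm24451 (29.3), Snord49a (33.7) and the identical Snora19 and Gm23658 (11.5) stood apart, as did the highest lysate wells of Snord111 (108.9) and Mir669a-3 (17.9, the other 8 at 0).

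Among mRNAs, the highest RNA wells stood apart for Ccnb1 (149 TPM), Anxa2 (29.8), Egln3 (11.3), Jun (1.43) and Rps6kb1 (30.9). The highest lysate wells did so for Cd68 (28.6), Kars (97.5), Myc (10.3), Plk1 (27.5), Slc2a1 (165) and Tfap2c (22.2), and the lowest lysate wells for Rpl8 (474) and Lamc1 (76.6). What set these wells apart was not tested.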

How the results depend on the processing

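Of the main results set against each alternative, 134 stayed on their side of the threshold or within 1.5 times the count, 9 moved further and 1 gained a call. With a mean TPM of at least 10, 1193 genes were higher in lysate, and 467 higher and 115 lower by a fold of at least 2, out of 6421 tested in place of 15653. Median-ratio scaling gave 822 lower genes, and rescaling without the 15 genes of the largest shares, chosen after seeing the data, 709, with 66.4% of calls higher. G1/S genes higher in lysate then numbered 3 and 4. The snRNA share, which did not pass as deposited, passed without 7 rRNA and 7SK genes (lysate minus RNA -0.0394 percentage points, exact permutation adjusted p = 0.0494). For intron-retaining over other transcripts, a pseudocount of 0.1 gave 78 higher and 1 lower. Causes were not tested beyond the smaller number of genes in the first. With plate column as a replicate block, 1962 genes were higher and 484 lower. Wells of the same column correlated at 0.0889, 0.0657 and 0.0572, below the 0.1 asked for to pair them, but above every pair of different columns (highest 0.015). Genes at a TPM of at least 1 also numbered fewer in column 2 than in column 3, at 12830 to 12899 against 13210 to 13343 in RNA and 14340 to 14389 against 14694 to 14817 in lysate. Without lysate well D04, 1829 genes were higher and 413 lower. For the genes named, 1386 comparisons with an alternative kept the call, 58 lost it, 5 gained it and 0 turned direction. The calls lost without D04 were those of Ldhb (log2 fold 0.363), Mir669a-3 (-2.29), Rps6ka5 (0.888), Rps6kb1 (1.00), Snord65 (2.03) and mt-Co1 (0.226). By the longest transcript of a gene the smallest median fold was 0.148, between 500 and 1000 bases, in place of 0.194 between 1000 and 2000. Depth is unknown.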

Other observations

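Further gene groups were looked at after values of single genes had been seen, so their counts are descriptions. Over all genes tested, 12.4% were higher and 2.86% lower. Of 23 genes of glycolysis and of glucose and lactate transport, all tested, 2 were higher in lysate and 12 lower, with a median log2 fold of -0.38. Ldha, which turns pyruvate into lactate, was at 146 to 221 TPM (median 162) in lysate and 314 to 499.9 (median 394) in RNA, without overlap (log2 fold -1.23, SE 0.10, limma adjusted p = 4.83e-08). The lactate exporter gene Slc16a3 had a log2 fold of -2.26, the phosphofructokinase gene Pfkl one of -1.42 and the glucose transporter gene Slc2a1 one of -1.19, whereas Ldhb and Slc16a1 were higher and Gapdh gave -0.079 (adjusted p = 0.341). Of 9 other genes that answer to low oxygen 3 were lower, Bnip3, Egln3 and Ndrg1, and 1 was higher, Vegfa (log2 fold 0.68). Of the 14 called glycolysis genes, the mean of the G1 cells was nearer the lysate in 14, of S cells in 13, of G2/M cells in 13 and of 0 h cells in 1. Among all 448 lower genes these shares were 89.7%, 69.4%, 67.9% and 11.8%.

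Of 21 genes of autophagy and lysosomes 14 were higher and 0 lower (all genes: 12.4% and 2.86%), with a median log2 fold of 0.74. Sqstm1, the autophagy receptor p62, had a log2 fold of 1.54 (SE 0.15, limma adjusted p = 3.12e-07), the membrane protein gene Lamp2 one of 1.51 and Hmox1, which breaks down heme, one of 1.67. Of 20 genes that charge tRNAs 9 were higher, led by Wars (1.26) and Aars (1.08), and 1 was lower, Kars (-0.55). Of 11 tubulin genes 6 were lower and 0 higher, with Tuba1b at -0.99 and Tubb5 at -1.13. In 0 h cells 4 of the 14 called autophagy and lysosome genes, 1 of the 10 called tRNA charging genes and 0 of the 6 called tubulin genes were nearer the lysate. In G1, S and G2/M cells alike it was 14 of the 14 and 10 of the 10. For the 6 tubulin genes it was 6 in G1, 4 in S and 0 in G2/M cells. What in culture, phase or preparation moves with these groups was not tested.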
